A study of Mus musculus with 48 samples.

Results

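Alas1, Alad, Uros, Urod, Cpox, Ppox, Fech, Hmox1 and Por were followed through the day in liver. They were taken from a mouse liver RNA-seq count table by their gene symbols, 9 genes of 22354 in the table. The symbols cover most of the heme synthesis pathway, the inducible heme-degrading enzyme and the electron donor of microsomal cytochrome P450 enzymes. All 9 were in the table, and all 9 passed the filter on low counts. Both groups were C57BL/6 mice kept for 36 h in darkness and killed in darkness at 0, 4, 8, 12, 16 or 20 h. KO mice carried floxed Bmal1 alleles and a Cre under the aP2 promoter, which is used to drive deletion in adipocytes, and WT mice were their littermate controls. The design text describes males aged 4 to 6 months and 4 mice per genotype and time. The labels give 23 KO and 25 WT livers, 4 in each group except at 16 h, where there are 3 KO and 5 WT. A mislabelled library could not be told from the labels, so all results at 16 h rest on them. The comparisons ask how deletion of Bmal1 under this driver relates to the level and the rhythm of these genes in liver.

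Heme is built from glycine and succinyl-CoA in a chain that begins and ends in mitochondria. ALAS1 carries out the first and rate-limiting step in liver and is held down by heme itself. ALAD joins the product into porphobilinogen, UROS and UROD shape the porphyrin ring, CPOX and PPOX oxidise it, and FECH inserts the iron. HMOX1 opens the heme ring again, releasing iron, carbon monoxide and biliverdin, and POR passes electrons from NADPH to HMOX1 and to the cytochrome P450 enzymes, which are large users of heme in liver. Clock factors act on this pathway through Alas1, and the heme made serves as a ligand of the clock repressors REV-ERB alpha and REV-ERB beta.

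Total counts per library lay between 12841969 and 13009797 without albumin, and all values below are CPM, read counts relative to the size of their library after TMM scaling (factors of 0.892 to 1.11). The targeted gene Arntl (Bmal1) was still present in KO livers. Its KO group means ran between 3.68 and 32.4 CPM, against 2.02 to 37 CPM in WT livers, with a difference of 0.30 ± 0.16 (log2 ± SE, KO minus WT over all times) and an adjusted p of 0.347. Hepatocyte markers were high in every library, although 1 label field reads adipocyte. The 7 adipocyte markers summed to 6.08 to 83.6 CPM in KO and 8.78 to 50.1 CPM in WT livers. Of these, Fabp4 (up to 14.6 CPM) and Cidec (up to 76.7 CPM) were above 0 in every library, Cfd reached 1.65 CPM, and Adipoq, Lep, Plin1 and Retn, which define adipocytes, were at or below 0.898 CPM. Xist had 3029 to 13969 counts in every library and 3 Y-linked genes summed to 1 count at most, which goes against the description of the mice as male. WT_0h replicate 3 stood apart by adrenal genes (134 CPM summed over the marker list) and macrophage genes, and KO_0h replicate 2 by pancreatic genes (330 CPM). KO_16h replicate 2 stood apart by the highest hepatocyte marker sum (68940 CPM, against up to 62620 CPM in WT livers) and by Por. Its choice rests partly on a gene under test, so Por results without these 3 libraries are not an independent check. WT_16h replicate 5 had a lymphocyte marker sum of 1226 CPM (WT median 14.99), nearly all of it Ighm (1190 CPM). Ighm was lower in KO over all times (−1.63 ± 0.44, adjusted p = 0.0488), and this call was lost without that library (−0.98, adjusted p = 0.118).

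No heme synthesis gene, nor Hmox1 or Por, passed the test for a genotype difference, while Por and Hmox1 passed the test for a 24 h rhythm in KO livers and Alas1, Por and Hmox1 passed it in WT livers. Per kilobase of exon the levels differed widely. Por averaged 100 ± 97 CPM per kb in KO and 135 ± 90 in WT livers (SD over 23 and 25 livers), and Alas1 71.6 ± 31.8 in KO and 101 ± 78 in WT livers. Over all 48 livers Alad followed with 63.4 CPM per kb, Urod with 35.0 and Cpox with 22.7. Fech, Hmox1, Uros and Ppox were the low end, with 10.8, 8.91, 8.50 and 6.28 CPM per kb. In this order the neighbours Por and Alas1, Alas1 and Alad, Fech and Hmox1, and Hmox1 and Uros lay closer together than the larger of their SDs.

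**Figure D1:**
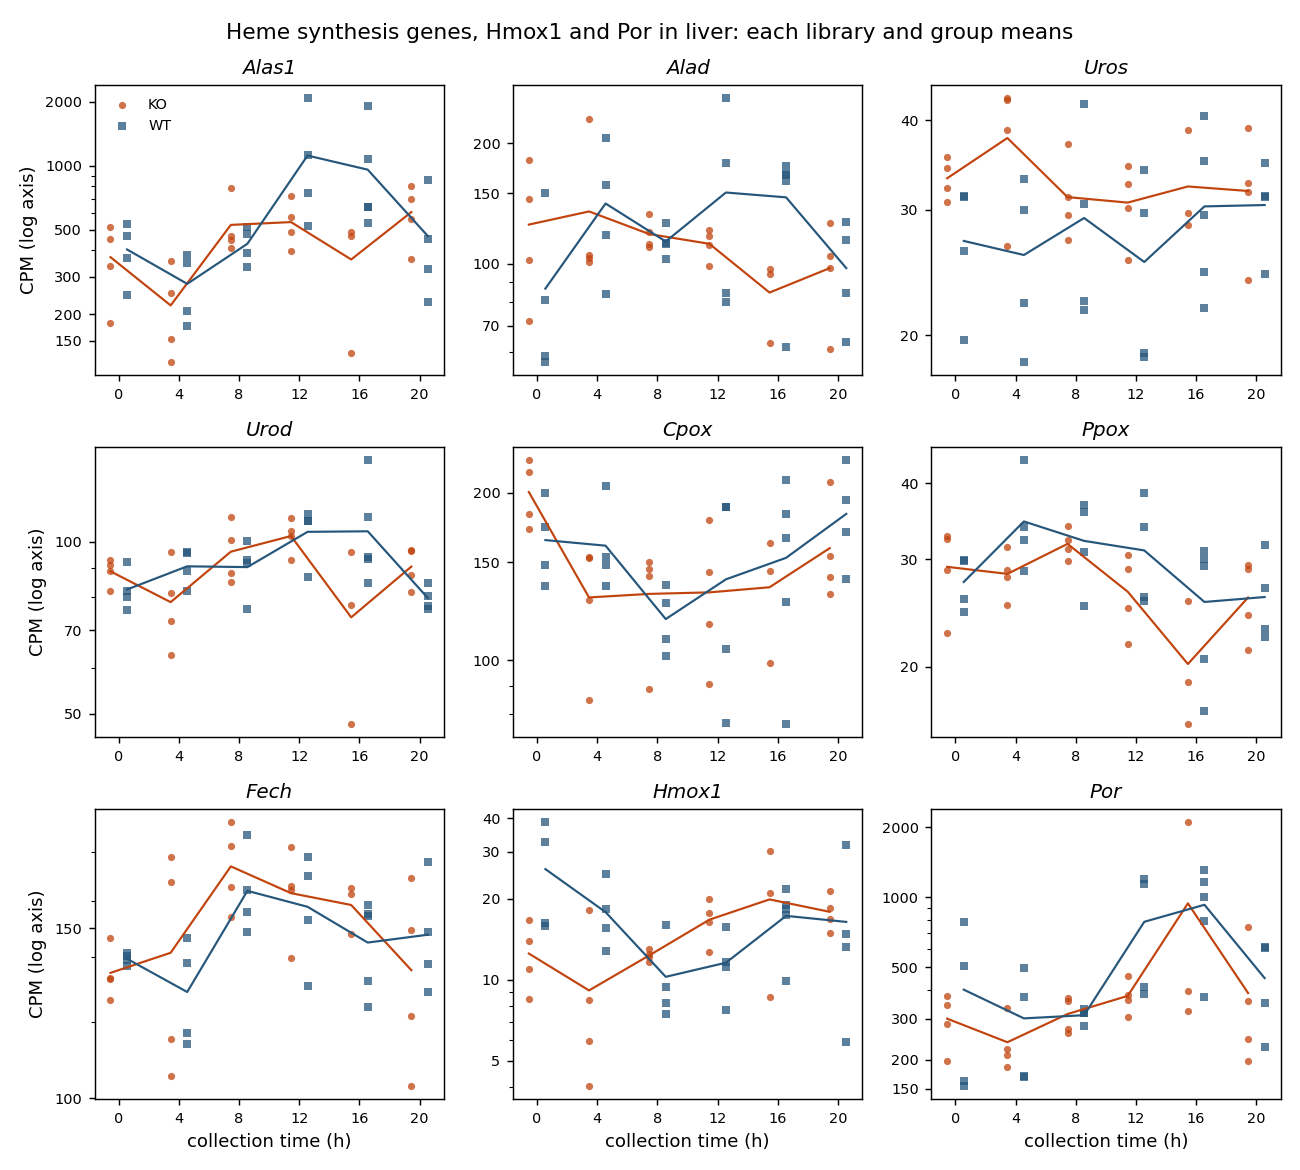
Level of each gene in every liver, in CPM on a log axis, against collection time in h. KO livers are circles drawn to the left and WT livers squares drawn to the right of each time, and lines join the group means. Alas1 and Por reach their highest WT group means at 12 and 16 h, and 1 KO liver at 16 h stands alone at 2103 CPM of Por.

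Alas1 (ENSMUSG00000032786, chr9:106135786-106150457 in mm9) had the largest fitted amplitude of the 9 genes in WT livers, close to that of Por. In KO livers it had 339, 515, 452 and 181 CPM at 0 h, then 356, 253, 154 and 119 at 4 h and 446, 787, 412 and 466 at 8 h. Later KO livers had 397, 486, 573 and 720 CPM at 12 h, then 467, 490 and 131 at 16 h and 696, 366, 559 and 803 at 20 h. The lowest KO group was that at 4 h and the highest that at 20 h. WT livers had 531, 468, 370 and 248 CPM at 0 h, then 348, 382, 207 and 176 at 4 h and 476, 336, 390 and 518 at 8 h. Later WT livers had 748, 520, 1123 and 2085 CPM at 12 h, then 1910, 538, 639, 639 and 1074 at 16 h and 451, 328, 861 and 228 at 20 h. The KO livers reached 803 CPM at most, while 4 WT livers at 12 and 16 h held 1074 CPM or more.

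Over all times Alas1 averaged 439 CPM in KO and 610 CPM in WT livers, a log2 difference of −0.37 ± 0.18 (SE) with an adjusted p of 0.281 and an unadjusted p of 0.0439. At 12 h the difference was −1.04 ± 0.44 (adjusted p = 0.908, unadjusted p = 0.0225), and −0.55 without WT_12h replicate 4, the liver with 2085 CPM. At 16 h it was −1.40 ± 0.47 (adjusted p = 0.528, unadjusted p = 0.00507), and the 3 KO livers, at 131 to 490 CPM, lay below the 5 WT livers, at 538 to 1910 CPM. This was the only time at which the KO and WT values of any of the 9 genes did not overlap. It rests on the labels at 16 h, which differ from the 4 mice per group of the design text. Of all genes tested, 1.17% did not overlap at 16 h, against 3.66% at 0 h, 7.79% at 4 h, 1.67% at 8 h, 3.25% at 12 h and 1.1% at 20 h. The call did not change in any alternative run, where the adjusted p at 16 h lay between 0.176 and 0.857. The difference was −0.99 without WT_16h replicate 1, the liver with 1910 CPM. It was −1.36 without WT_16h replicate 5 and −1.69 without KO_16h replicate 2. Alas1 shares 465 exon bases with 4930500F10Rik on the opposite strand. Whether the counting used strand is not given, so the assignment of reads there is uncertain.

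The 24 h harmonic fit gave Alas1 an amplitude of 0.42 ± 0.23 in KO livers (log2 units from mean to peak ± SE), with a peak at 14.9 ± 2.0 h and an adjusted p of 0.285. In WT livers the amplitude was 0.87 ± 0.19 with a peak at 14.2 ± 0.8 h and an adjusted p of 0.000917, a 3.36-fold span between fitted trough and peak. The rhythm did not pass in KO livers and passed in WT livers, but by edgeR the difference between them did not pass (unadjusted p = 0.193, adjusted p = 1). The WT call held in all alternatives run. The 3 genes whose 12 group means ran most like those of Alas1, among 10992 genes, were Agpat1 (r = 0.933), Marveld1 (r = 0.906) and Prdm2 (r = 0.905). Without the 3 libraries that stood apart their r was 0.941, 0.837 and 0.849, and Dclre1b came first (r = 0.958).

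Por (ENSMUSG00000005514, chr5:136145903-136211196 in mm9) had a fitted peak at nearly the same hour as Alas1, whose rhythm passed in WT livers only. In KO livers it had 374, 197, 344 and 284 CPM at 0 h, then 332, 222, 210 and 186 at 4 h and 356, 369, 272 and 260 at 8 h. Later KO livers had 305, 362, 378 and 459 CPM at 12 h, then 394, 2103 and 325 at 16 h and 745, 246, 198 and 358 at 20 h. KO_16h replicate 2 held more than any other liver of the series. WT livers had 781, 504, 161 and 153 CPM at 0 h, then 371, 495, 168 and 169 at 4 h and 316, 329, 278 and 319 at 8 h. Later WT livers had 383, 411, 1202 and 1139 CPM at 12 h, then 1310, 372, 790, 998 and 1168 at 16 h and 610, 226, 352 and 606 at 20 h. High WT values gathered at 12 and 16 h, and the genotypes overlapped at every time.

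Over all times Por averaged 426 CPM in KO and 528 CPM in WT livers, a log2 difference of −0.33 ± 0.20 with an adjusted p of 0.399. Without KO_16h replicate 2 it was −0.57 ± 0.19 (unadjusted p = 0.00448, adjusted p = 0.0855). At 12 h the difference was −1.06 ± 0.50 (adjusted p = 0.908, unadjusted p = 0.041). At 16 h it was 0.02 ± 0.51 (adjusted p = 0.989) with that liver and −1.37 ± 0.57 (adjusted p = 0.46, unadjusted p = 0.0203) without it. The rhythm had an amplitude of 0.54 ± 0.20 and a peak at 15.5 ± 1.3 h in KO livers (adjusted p = 0.0216). In WT livers the amplitude was 0.85 ± 0.21 and the peak 15.1 ± 1.0 h (adjusted p = 0.00846). The test of the rhythm difference gave an unadjusted p of 0.927 (adjusted p = 1). The KO call rested on 1 library: without KO_16h replicate 2 the KO amplitude was 0.31 and the adjusted p 0.414, and without all 3 libraries that stood apart it was 0.29 with an adjusted p of 0.425. Without both 16 h groups neither call held, with adjusted p-values of 0.353 in KO and 0.0671 in WT livers. The genes with the most similar group means were Mknk2 (r = 0.967), Dgat2, an enzyme of triglyceride synthesis (r = 0.953), and Gne, an enzyme of sialic acid synthesis (r = 0.943). Without the 3 libraries that stood apart these r were 0.937, 0.907 and 0.875, and Mknk2 still came first.

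Because the fitted WT peaks of Alas1 and Por lay at nearly the same hour, the DNA just before their starts is shown. Alad and Urod are shown with them because they hold the E-box that CLOCK and BMAL1 bind. Each sequence gives the 250 bases before a RefSeq transcription start (GRCm38.p6), 5′ to 3′ on the gene's strand. Capitals mark CACGTG, the canonical E-box, and the motif of nuclear respiratory factor 1 (GCGCA and GCGC parted by 1 free base), both searched on both strands.
Alas1, chr9:106247731-106247980, minus strand: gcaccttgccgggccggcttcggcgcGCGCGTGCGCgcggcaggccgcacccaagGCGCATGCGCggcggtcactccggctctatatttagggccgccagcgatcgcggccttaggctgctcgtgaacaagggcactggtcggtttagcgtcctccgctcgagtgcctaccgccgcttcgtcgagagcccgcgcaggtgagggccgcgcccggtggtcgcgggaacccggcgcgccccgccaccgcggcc
Por, chr5:135688895-135689144, plus strand: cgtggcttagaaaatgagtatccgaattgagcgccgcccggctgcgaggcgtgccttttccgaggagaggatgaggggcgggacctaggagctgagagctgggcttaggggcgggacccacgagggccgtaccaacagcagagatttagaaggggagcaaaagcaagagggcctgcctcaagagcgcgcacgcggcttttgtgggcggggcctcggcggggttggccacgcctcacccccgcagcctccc
Alad, chr4:62519910-62520159, minus strand: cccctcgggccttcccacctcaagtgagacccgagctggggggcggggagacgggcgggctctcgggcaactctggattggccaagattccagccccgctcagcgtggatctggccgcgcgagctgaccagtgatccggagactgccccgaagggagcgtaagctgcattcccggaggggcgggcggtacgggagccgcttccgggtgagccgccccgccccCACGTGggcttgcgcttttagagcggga
Urod, chr4:116994414-116994663, minus strand: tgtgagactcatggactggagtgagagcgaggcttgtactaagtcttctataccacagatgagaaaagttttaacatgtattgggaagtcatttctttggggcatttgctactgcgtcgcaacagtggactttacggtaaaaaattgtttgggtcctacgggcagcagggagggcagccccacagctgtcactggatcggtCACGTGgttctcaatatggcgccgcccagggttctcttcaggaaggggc
The search covered 10 such windows for 7 of the genes. No window of Hmox1 or Fech was searched, so the counts below say nothing about these genes. CACGTG was found in 4 of the 10 windows, both of Alad and 1 each of Urod and Uros, against 6.02% of 32851 windows of all genes. It began 28 bases before the start in the Alad sequence above, and 49 in that of Urod. None of the windows of Alas1, Por, Cpox or Ppox held it. The motif of nuclear respiratory factor 1 was found in 2 windows, at 2 places in that of Alas1 (beginning 224 and 195 bases before the start) and 1 time in that of Uros, against 3.74% of all windows. The D-box TTANGTAA and the RORE core TAGGTCA were found in 0 of the 10 windows, against 2.06% and 2.23%. A match describes letters only and was not tied to any binding or change here.

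The steps between Alas1 and Fech had smaller amplitudes, and none of their rhythms passed. Alad, the second enzyme (ENSMUSG00000028393, chr4:62170203-62180952 in mm9), averaged 112 CPM in KO and 123 CPM in WT livers, a log2 difference of −0.11 ± 0.14 (adjusted p = 0.668). At 16 h it had 96.7, 63.3 and 94.0 CPM in KO livers, against 176, 62.0, 167, 166 and 161 CPM in WT livers. Of the WT livers 4 lay above and 1 below every KO liver, and the difference was −0.79 ± 0.37 with an adjusted p of 0.731. Its harmonic fit peaked at 5.0 ± 1.6 h in KO and 11.3 ± 2.0 h in WT livers, but neither rhythm passed (adjusted p = 0.289 in KO and 0.239 in WT livers). Without both 16 h groups the sign of the difference over all times turned, to 0.024.

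Uros (ENSMUSG00000030979, chr7:140877926-140901755 in mm9), which closes the porphyrin ring, had the only positive difference over all times apart from Fech. It averaged 32.8 CPM in KO and 28.05 CPM in WT livers, 0.23 ± 0.09 on the log2 scale, with an unadjusted p of 0.0159 and an adjusted p of 0.194. At 4 h it had 26.7, 42.7, 38.8 and 43.0 CPM in KO livers, against 18.3, 22.2, 29.99 and 33.2 CPM in WT livers. The KO liver at 26.7 CPM fell among the WT livers, and the difference was 0.54 ± 0.22 (adjusted p = 0.158). Without that liver, KO_4h replicate 1, it was 0.69 with an adjusted p of 0.0323. The same omission raised the number of genes called at 4 h to 3354, against 5 with all libraries. Neither genotype showed a rhythm of Uros (adjusted p = 0.613 in KO and 0.731 in WT livers).

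Urod (ENSMUSG00000028684, chr4:116662570-116667018 in mm9), which trims the side chains of the ring, was among the steadiest, with an SD within groups of 0.20 log2 units. It averaged 88.3 CPM in KO and 91.9 CPM in WT livers over all times (−0.06 ± 0.06, adjusted p = 0.611). At 16 h it had 95.8, 77.5 and 47.9 CPM in KO livers, against 111, 94.0, 93.3, 139 and 84.8 CPM in WT livers. One KO value lay inside the WT range and the others below it, and the difference was −0.50 ± 0.16, with an unadjusted p of 0.00306 and an adjusted p of 0.451. The KO liver at 47.9 CPM was also the lowest of that group for Alas1, and without it the difference was −0.27. Without both 16 h groups the difference over all times turned to 0.031. The harmonic amplitude was 0.08 ± 0.08 in KO and 0.17 ± 0.05 in WT livers (adjusted p = 0.538 and 0.117).

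The late steps gave small differences between genotypes. Cpox (ENSMUSG00000022742, chr16:58670321-58680504 in mm9) averaged 148 CPM in KO and 153 CPM in WT livers (−0.06 ± 0.11, adjusted p = 0.798). Its fitted peak fell late, at 22.4 ± 1.5 h in KO and 22.0 ± 1.6 h in WT livers, with amplitudes of 0.27 ± 0.10 and 0.27 ± 0.11 that did not pass (adjusted p = 0.147 and 0.199). Ppox (ENSMUSG00000062729, chr1:173206121-173211317 in mm9) averaged 27.0 CPM in KO and 29.5 CPM in WT livers (−0.13 ± 0.07, adjusted p = 0.361). It peaked early, at 4.8 ± 1.1 h in KO and 6.4 ± 1.3 h in WT livers, with amplitudes of 0.23 ± 0.07 and 0.22 ± 0.07 (adjusted p = 0.0953 and 0.0673). Fech (ENSMUSG00000024588, chr18:64616204-64648720 in mm9) averaged 151 CPM in KO and 147 CPM in WT livers (0.04 ± 0.06, adjusted p = 0.75). Its amplitude was 0.19 ± 0.06 in KO and 0.11 ± 0.05 in WT livers, with peaks at 10.9 ± 1.3 h and 12.0 ± 1.7 h (adjusted p = 0.0636 and 0.366). The KO rhythm of Fech passed without KO_12h replicate 2 (0.046), KO_16h replicate 3 (0.0442) or KO_20h replicate 3 (0.0322). The WT rhythm of Ppox passed without KO_16h replicate 3 (0.0305), WT_8h replicate 2 (0.0373) or WT_20h replicate 4 (0.0396). Cpox shares 204 exon bases with Gpr15 and Ppox 791 with B4galt3, each on the opposite strand, so those counts are uncertain to that extent.

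**Figure D2:**
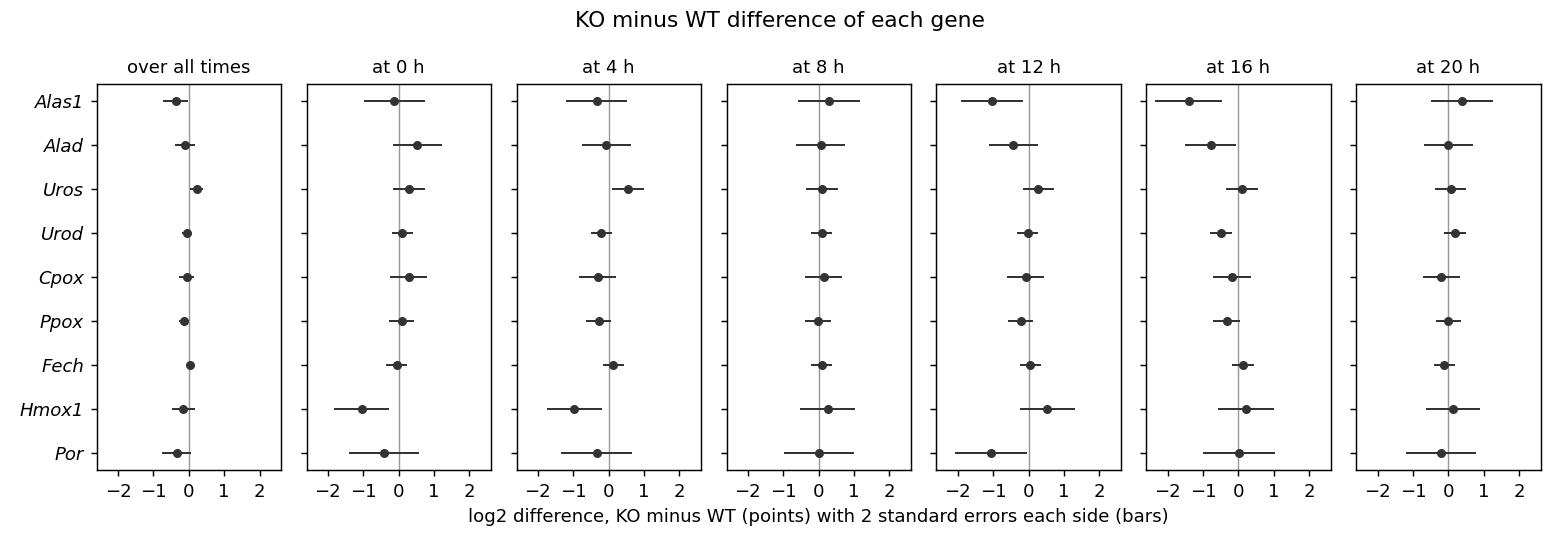
KO minus WT difference of each gene on the log2 scale, over all times and at each time, with bars of 2 standard errors on each side. None of the values passed at an adjusted p of 0.05; the widest departures are Alas1 at 12 and 16 h, Por at 12 h and Hmox1 at 0 and 4 h, all below 0.

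Across the 9 genes, 2 differences over all times were positive and 7 negative, with a median of −0.115, beside a median of −0.0047 over all 13646 genes tested. With edgeR 0 of 9 passed the adjusted threshold of 0.05, against 1.4% of all genes tested (191 genes, 0.623% higher and 0.777% lower in KO). At an unadjusted p under 0.05 there were 2 of 9, Alas1 and Uros, against 17.1% of all genes, and DESeq2 called 0. At single times edgeR called 0 of 9 throughout, against 0.0147% of all genes at 0 h, 0.0366% at 4 h, 0.022% at 16 h and 0% at 8, 12 and 20 h. At an unadjusted p under 0.05 there were 1, 2, 0, 2, 3 and 0 of 9 from 0 to 20 h, against 5.53%, 23.3%, 1.82%, 4.4%, 6.65% and 1.84% of all genes. DESeq2 called 0 of 9 at every time.

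Hmox1 (ENSMUSG00000005413, chr8:77617490-77624495 in mm9) had its highest group means at different hours in KO and WT livers, although the test of that difference did not pass after adjustment. In KO livers it had 8.47, 13.9, 10.98 and 16.8 CPM at 0 h, then 18.2, 5.96, 4.03 and 8.43 at 4 h and 12.2, 11.6, 12.5 and 13.1 at 8 h. Later KO livers had 12.7, 16.5, 17.7 and 20.0 CPM at 12 h, then 30.1, 21.0 and 8.65 at 16 h and 18.5, 21.3, 14.97 and 16.8 at 20 h. The KO group means were lowest at 4 h and highest at 16 h. WT livers had 16.2, 15.8, 38.6 and 32.7 CPM at 0 h, then 24.8, 12.8, 18.3 and 15.6 at 4 h and 9.38, 7.45, 8.24 and 16.0 at 8 h. Later WT livers had 11.2, 11.7, 7.75 and 15.7 CPM at 12 h, then 9.89, 19.0, 21.8, 17.5 and 18.4 at 16 h and 13.3, 5.88, 14.8 and 31.7 at 20 h. The WT group means were highest at 0 h and lowest at 8 h, and the genotypes overlapped at every time.

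Over all times Hmox1 averaged 14.8 CPM in KO and 16.6 CPM in WT livers, a log2 difference of −0.15 ± 0.16 with an adjusted p of 0.619. At 0 h the difference was −1.04 ± 0.39 (adjusted p = 0.642, unadjusted p = 0.0105), and without WT_0h replicate 3 it was −0.78 ± 0.41 (adjusted p = 1). At 4 h it was −0.97 ± 0.39 (adjusted p = 0.158, unadjusted p = 0.0181). Without KO_4h replicate 1 the 4 h difference was −1.53 with an adjusted p of 0.0154. The harmonic fit gave an amplitude of 0.56 ± 0.16 with a peak at 16.2 ± 1.0 h in KO livers (adjusted p = 0.0482). In WT livers it gave 0.46 ± 0.18 with a peak at 22.8 ± 1.4 h (adjusted p = 0.0336). The KO peak came 6.61 ± 1.75 h (SE) before the WT peak. The test of the rhythm difference had an unadjusted p of 0.0027 and an adjusted p of 1. Among all genes 2.66% had an unadjusted p under 0.05 in that test, and 1 gene (0.00733%) passed.

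Both Hmox1 rhythm calls were close to the threshold. The KO call was lost in 32 of the 56 alternatives run for it, with adjusted p-values up to 0.245, among them 25 omissions of a single library (0.05 to 0.14). These libraries were KO_0h replicates 1 to 3, KO_4h replicates 2 to 4, KO_8h replicates 1 to 4, KO_12h replicates 2 to 4, KO_16h replicates 1 and 2 and KO_20h replicates 1, 2 and 4. Among WT livers they were WT_4h replicates 3 and 4, WT_8h replicate 1, WT_12h replicates 1 and 2 and WT_16h replicates 4 and 5. The WT call was lost without WT_0h replicate 3 (adjusted p = 0.115), WT_0h replicate 4 (0.0844), WT_8h replicate 1 (0.0575), 2 (0.0656) or 3 (0.0601), WT_12h replicate 1 (0.0524) or 3 (0.0584) and WT_20h replicate 4 (0.0685), and without the 3 libraries that stood apart (0.127).

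Hmox1 is expressed strongly in macrophages and in the Kupffer cells of liver, which clear spent red blood cells, and 14 markers of these cells were measured. By edgeR 0 of 14 passed the genotype test over all times, also at an unadjusted p, and DESeq2 called 0. At 0 h all 14 were lower in KO livers (−1.41 to −0.86, median −1.16), as Hmox1 was. Of these 12 had an unadjusted p under 0.05, against 5.53% of all genes, and 0 passed after adjustment by edgeR or DESeq2. Without WT_0h replicate 3 all 14 were still lower (median −0.54), and 1 had an unadjusted p under 0.05, against 3% of all genes. At 4 h, where Hmox1 had −0.97, the median of the markers was 0.09 and 0 of 14 had an unadjusted p under 0.05. In the test of a rhythm difference 0 of 14 passed by edgeR or DESeq2, but 6 had an unadjusted p under 0.05 (Cd163, Cd68, Csf1r, Timd4, Cd5l and Emr1, 0.0115 to 0.0369), against 2.66% of all genes, as did Hmox1. Markers of the same cells are not independent of each other, and this count was not repeated without WT_0h replicate 3. Cd163, the scavenger receptor for hemoglobin bound to haptoglobin, is also in the list of heme uptake genes. It was the only one of the 14 with a rhythm by edgeR, in KO livers (adjusted p = 0.0101), against 17% of all genes there. DESeq2 also called 1 of the 14 in WT livers, Csf1r (adjusted p = 0.0394). Their summed level was 173 to 942 CPM in KO and 187 to 1699 CPM in WT livers. Among KO groups the sum was highest at 16 h (691 ± 244 CPM, SD, n = 3) and lowest at 0 h (386 ± 179 CPM, n = 4). Among WT groups it was highest at 0 h (846 ± 628 CPM, n = 4) and lowest at 20 h (366 ± 25 CPM, n = 4). The groups with the highest marker sum were those with the highest mean of Hmox1 in each genotype, but the lowest groups differed. Hmox1 was lowest at 4 h in KO (9.14 CPM) and at 8 h in WT livers (10.3 CPM). WT_0h replicate 3 had both the highest sum, 1699 CPM, and the highest Hmox1, 38.6 CPM. Across 48 livers, taken as deviations from group means, Hmox1 and the sum had a Pearson r of 0.377 (permutation p = 0.0118, adjusted 0.0457) and a Spearman rho of 0.396 (permutation p = 0.0186, adjusted 0.0637). Without the 2 livers farthest from the median Hmox1 deviation r was 0.434, within KO 0.269, within WT 0.444, and without the 3 libraries that stood apart 0.344. In whole liver, more such cells and more RNA per cell cannot be told apart, and the part of these cells in the Hmox1 pattern was not tested. The genes with the most similar group means were Sdc3 (r = 0.941), Rgl1 (r = 0.927) and Itga9 (r = 0.919). Without the 3 libraries that stood apart these r were 0.922, 0.874 and 0.834.

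**Figure D3:**
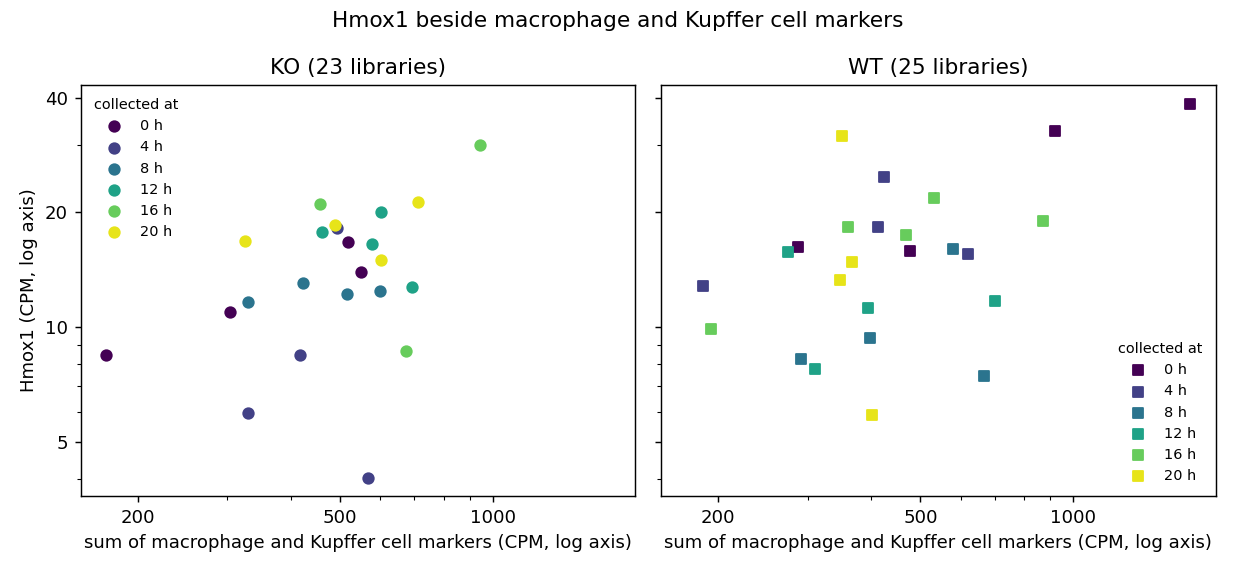
Hmox1 against the summed macrophage and Kupffer cell markers, both in CPM on log axes, for 23 KO livers on the left and 25 WT livers on the right, coloured by collection time. The WT liver at the upper right, WT_0h replicate 3, has 38.6 CPM of Hmox1 and a marker sum of 1699 CPM.

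Read as a group, 2 of 9 genes passed the rhythm test in KO livers (Hmox1 and Por), against 17% of all genes. In WT livers 3 of 9 passed (Alas1, Hmox1 and Por), against 16.3%. Counts this small beside these shares do not set the genes apart from the rest of the liver transcriptome. DESeq2 called 3 in KO and 4 in WT livers. At an unadjusted p under 0.05 by edgeR there were 4 in KO and 5 in WT livers, against 34.3% and 31.5% of all genes. Under a test for any difference between the 6 times, 0 of 9 passed in KO livers, with adjusted p-values of 0.137 for Alas1, 0.0621 for Por and 0.245 for Hmox1, against 9.73% of all genes. In WT livers Alas1 (adjusted p = 0.00367) and Por (adjusted p = 0.0429) passed it and Hmox1 did not (0.124), against 8.55%. Among the 3 WT rhythms that passed, Alas1 and Por peaked at 14.2 and 15.1 h and Hmox1 at 22.8 h. The fitted WT peaks of the 6 other genes, from 6.4 h for Ppox to 22.0 h for Cpox, belong to rhythms that did not pass. No rhythm difference between genotypes passed: edgeR and DESeq2 both called 0 of 9, against 0.00733% of all genes by edgeR, and 1 of 9 (Hmox1) had an unadjusted p under 0.05.

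**Figure D4:**
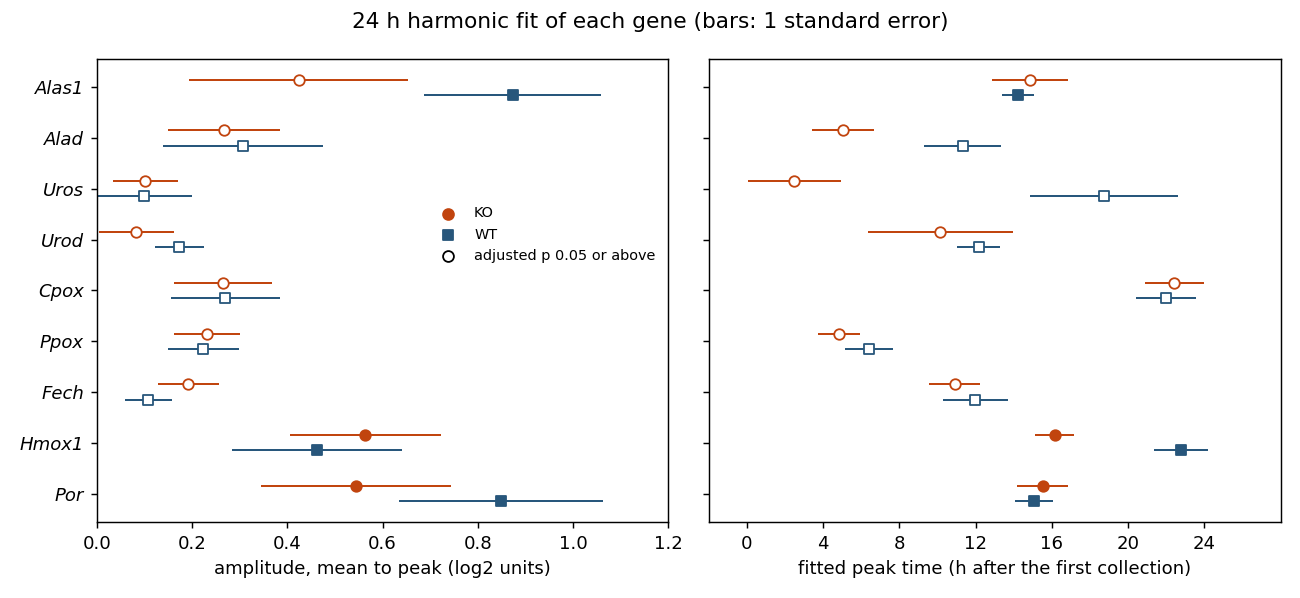
Amplitude in log2 units (left) and fitted peak time in h (right) of each gene, KO circles above WT squares, with bars of 1 standard error and filled symbols for an adjusted p under 0.05. The fitted peaks of Alas1 and Por lie between 14.2 and 15.5 h in both genotypes, although the KO rhythm of Alas1 did not pass. Those of Hmox1 lie at 16.2 h in KO and 22.8 h in WT livers.

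The genes also differed in how far mice of 1 group varied. Within groups the SD was 0.74 log2 units for Por, higher than in 90.5% of all genes, 0.65 for Alas1 (83.5%) and 0.57 for Hmox1 (74.6%). It was 0.20 for Urod and for Fech, higher than in only 6.47% and 5.65% of genes. Part of the spread was shared between genes. Of 36 pairs, 9 had correlated deviations from their group means across 48 mice (permutation within groups, 100000 resamples, adjusted over 97 relations), 7 positive and 2 negative. The share of such pairs among all genes was not computed, so this count does not set the 9 genes apart. Alad and Por had r = 0.657 (permutation p = 0.00012, adjusted 0.00116) and rho = 0.703 (permutation p = 5e-05, adjusted 0.000606), with r = 0.217 within KO and 0.898 within WT mice. Without the 2 mice farthest on Alad r was 0.609, and without the 3 libraries that stood apart 0.762. Alas1 and Por had r = 0.554 (permutation p = 0.00211, adjusted 0.012) and rho = 0.568 (permutation p = 0.00078, adjusted 0.00582), with 0.490 within KO and 0.601 within WT mice. Without the 2 mice farthest on Alas1 r was 0.508. Alad and Fech, the second enzyme and the last, varied in opposite directions, with r = −0.529 (permutation p = 0.00029, adjusted 0.00234) and rho = −0.510 (permutation p = 0.00103, adjusted 0.00666), −0.504 within KO and −0.616 within WT mice. Without the 2 mice farthest on Alad r was −0.503.

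These correlations ran along a pattern common to the whole transcriptome. The first principal component of the deviations of all genes held 36.4% of their spread, and the median absolute r of a gene with it was 0.55. Por had r = 0.777 with it, Alad 0.760, Ppox 0.678, Alas1 0.596 and Fech −0.642. With this component taken out, an alternative chosen after the data were seen, the r of Alad and Por was 0.161, of Alas1 and Por 0.178 and of Alad and Fech −0.082. That of Hmox1 and the macrophage sum was 0.743. What the component stands for was not tested.

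**Figure D5:**
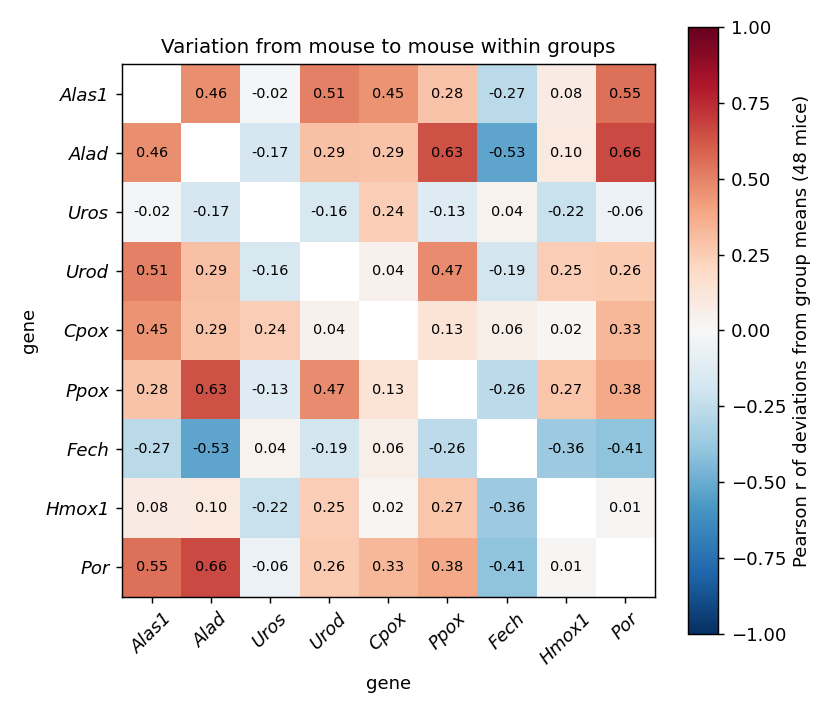
Pearson r between the 9 genes across 48 mice, KO and WT together, computed on log2 CPM as deviations from the mean of each group of genotype and time. Alad, Por, Ppox and Alas1 share positive values up to 0.66, and Fech is negative against most of them, down to −0.53 with Alad.

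Genes around the pathway were read from lists chosen with earlier results of these data known. In the genotype test over all times, 1.4% of all genes passed by edgeR and 17.1% had an unadjusted p under 0.05. Alas2, the erythroid form of the first enzyme, averaged 12.8 CPM in KO and 11.2 CPM in WT livers (0.20 ± 0.17, log2 KO minus WT ± SE) and did not pass the genotype test (adjusted p = 0.528). Of 17 genes of mitochondrial supply and porphyrin transport, 0 passed the genotype test by edgeR or DESeq2. At an unadjusted p under 0.05 there were 2, against 17.1% of all genes. These were Clpx (0.24 ± 0.11), an unfoldase that acts on ALAS in mitochondria, and Abcg2 (0.20 ± 0.10), a porphyrin exporter. In this list 5 were rhythmic in KO and 2 in WT livers, against 17% and 16.3% of all genes. Clpx oscillated with an amplitude of 1.198 ± 0.14 and a peak at 21.3 h in KO livers and 1.48 ± 0.11 with a peak at 22.4 h in WT livers (adjusted p = 1.46e-07 and 1.37e-10), and Iscu, the iron-sulfur scaffold, with 0.21 ± 0.07 in KO livers (adjusted p = 0.0427) and 0.23 ± 0.05 in WT livers, the WT call being lost without WT_8h replicate 3 (adjusted p = 0.0633).

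Of 10 measured genes of heme export, uptake and binding, 0 passed the genotype test by edgeR or DESeq2. At an unadjusted p under 0.05 there was 1, haptoglobin (Hp, −0.27 ± 0.11), against 17.1% of all genes. Next by p came Pgrmc1, a heme-binding membrane protein (0.15 ± 0.08). Rhythms passed for 2 in KO and 1 in WT livers, against 17% and 16.3% of all genes. In WT livers this was the transporter Mfsd7c, with an amplitude of 0.46 ± 0.13. Its call was lost without WT_0h replicate 2 (adjusted p = 0.0653). Of 4 other genes of heme breakdown, 0 passed the genotype test by edgeR or DESeq2, also at an unadjusted p. Rhythms passed for 1 in KO and 2 in WT livers, beside the same shares of all genes. Blvra, a biliverdin reductase, passed in both genotypes, with an amplitude of 0.41 ± 0.11 and a peak at 8.0 h in KO livers (adjusted p = 0.0118) and 0.33 ± 0.09 with a peak at 9.5 h in WT livers. The other biliverdin reductase, Blvrb, had 0.25 ± 0.09 in KO livers (adjusted p = 0.0808) and passed in WT livers with 0.38 ± 0.08 and a peak at 10.95 h. Their genotype differences were 0.15 ± 0.10 for Blvra and 0.08 ± 0.09 for Blvrb. The WT rhythm call of Blvra was lost in 11 omissions of a single library (adjusted p = 0.0515 to 0.125), those of WT_0h replicates 1 to 3, WT_8h replicates 2 and 3, WT_12h replicates 1 and 2, WT_16h replicate 3 and WT_20h replicates 1, 3 and 4.

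Of 20 regulators of Alas1 and Hmox1, 0 passed the genotype test by edgeR or DESeq2, and 2 had an unadjusted p under 0.05, against 17.1% of all genes. The immediate-early factor Egr1 had −0.82 ± 0.28 and a mean of 16.3 CPM in KO and 29.0 CPM in WT livers (adjusted p = 0.13), and Mafk, a partner of NRF2 and BACH1, had −0.25 ± 0.12 (adjusted p = 0.28). Without KO_16h replicate 2 both passed, at −0.99 (adjusted p = 0.0475) and −0.39 (adjusted p = 0.0314). Rhythms passed for 11 in KO and 9 in WT livers, against 17% and 16.3% of all genes. The list holds 5 clock output factors (Nr1d1, Nr1d2, Dbp, Tef and Hlf), which all passed in both genotypes, and of the other 15 there were 6 in KO and 4 in WT livers. The largest WT amplitudes among the genes whose WT rhythm passed were those of Dbp (amplitude 2.69 ± 0.26, peak 9.6 h) and Nr1d1, which encodes REV-ERB alpha (2.04 ± 0.39, peak 7.3 h). In KO livers these had amplitudes of 2.38 ± 0.30 and 1.90 ± 0.40. Of 60 relations between Alas1, Hmox1 or Por and these regulators across mice, 17 passed. The share among other gene pairs was not computed, so this count does not set these relations apart. Among the 17 was Por with Keap1 (r = 0.815, rho = 0.831, permutation p = 1e-05 for both, the smallest the resamples can give, adjusted 0.000194). That r was 0.757 within KO and 0.851 within WT mice, 0.805 without the 2 mice farthest on Por, and 0.452 with the shared component taken out.

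Of 12 measured NRF2 target genes, 0 passed the genotype test by edgeR or DESeq2, also at an unadjusted p, the lowest p being that of Txnrd1 (−0.11 ± 0.08) and Gstm1 (−0.37 ± 0.30). Rhythms passed for 3 in each genotype, against 17% of all genes in KO and 16.3% in WT livers. Among them Srxn1 had an amplitude of 0.51 ± 0.09 in KO and 0.55 ± 0.09 in WT livers. Nqo1 had 0.37 ± 0.10 in KO and 0.39 ± 0.11 in WT livers, where its call was lost without WT_8h replicate 3 (adjusted p = 0.0673). Of 7 genes listed as electron donors and partners beside Por, 0 passed by edgeR or DESeq2. At an unadjusted p under 0.05 there was 1, against 17.1% of all genes. This was Nqo2 (0.24 ± 0.09), followed by Cyb5r1 (−0.27 ± 0.14). The ferredoxin Fdx1 was rhythmic in both genotypes, with amplitudes of 0.31 ± 0.08 in KO and 0.35 ± 0.07 in WT livers. It was the only 1 of the 7 in each, against 17% and 16.3% of all genes.

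Of 22 microsomal enzymes that draw electrons from POR, most of them P450 enzymes, 1 was higher in KO livers and none lower. Cyp2c37 had 2147 CPM in KO and 1483 CPM in WT livers (0.50 ± 0.12, adjusted p = 0.0228). The call was lost without KO_16h replicate 3 (0.38, adjusted p = 0.109). It was also lost without both 16 h groups (0.39, adjusted p = 0.0894), and the counts of such near-identical Cyp2c family members are uncertain. Rhythms passed for 5 in KO and 7 in WT livers, against 17% and 16.3% of all genes. The largest WT amplitudes among the genes whose WT rhythm passed were those of Cyp2b10 (1.93 ± 0.28 in KO and 2.15 ± 0.28 in WT livers, peaks at 18.6 and 20.2 h) and Cyp2a5 (1.33 ± 0.16 in KO and 1.34 ± 0.13 in WT livers, peaks at 11.8 and 12.6 h). Cyp2b10 and Cyp2a5 belong to families with near-identical copies as well.

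Of 10 other genes of heme proteins and their assembly, Cygb, the cytoglobin of stellate cells, fell to 4.84 CPM in KO livers, against 8.88 CPM in WT livers (−0.86 ± 0.18, adjusted p = 0.00781), and none rose. By edgeR 0 of 8 markers of stellate cells and fibroblasts passed the genotype test, while desmin (Des, −0.34 ± 0.10) had an unadjusted p of 0.00117 (adjusted p = 0.0646) and was called by DESeq2 (adjusted p = 0.0298). All 8 were lower in KO livers (−0.34 to −0.04, median −0.20), as Cygb was, and 7 of 8 were without the 3 libraries that stood apart, where desmin passed by edgeR (adjusted p = 0.0433). The part of these cells in the Cygb difference was not tested. Their sum was 178 to 754 CPM in KO and 146 to 762 CPM in WT livers. Of the 10 genes of heme proteins and their assembly, none passed the rhythm test in KO livers, against 17% of all genes. In WT livers cytochrome c1 (Cyc1) alone passed, against 16.3% of all genes. Its amplitude was 0.30 ± 0.09 in WT and 0.09 ± 0.07 in KO livers. The WT call of Cyc1 was lost in 9 omissions of a single library (adjusted p = 0.0501 to 0.0966), those of WT_0h replicates 2 to 4, WT_4h replicate 4, WT_8h replicate 3, WT_12h replicate 4 and WT_16h replicates 1, 3 and 4. As a reference for the clock, 1 of 10 clock genes was higher in KO livers and none lower. Npas2, the alternative partner of BMAL1, had 5.23 CPM in KO and 3.79 CPM in WT livers, with a fitted difference of 1.67 ± 0.27 (adjusted p = 0.000373), which weights the 6 times equally on the log2 scale. Rhythms passed for 8 in KO and 7 in WT livers, against 17% and 16.3% of all genes. They were led in WT by Npas2 (1.72 ± 0.23 in KO and 3.12 ± 0.27 in WT livers) and Arntl (1.81 ± 0.21 in KO and 2.34 ± 0.20 in WT livers). By edgeR no gene of any list passed the test of a rhythm difference between genotypes, and DESeq2 called 1, among the clock genes. Over the other lists around the pathway, clock reference apart, 3 genes had an unadjusted p under 0.05 in that test, against 2.66% of all genes. These were Alas2, 1 of the 17 genes of mitochondrial supply and 1 of the 10 of heme export, uptake and binding.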

How the data were processed

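Liver RNA of 48 mice was sequenced after poly-A selection and random priming with a TruSeq version 2 kit, per the labels' protocols. The authors deposited read counts, whole numbers, for 22354 genes in 1 table. STAR 2.4.1d, CASAVA and build mm9 are named per the submitters' processing notes; the counting rule, annotation and strand use are not given in those sources. Totals were nearly equal between libraries, and how that came about is not given either, so they do not show equal sequencing depth. Alb, the 1 gene marked as high in the table, was left out. No column of another sample was present (0). Genotype, time and replicate came from the labels. Each mouse gave 1 library, and no 2 libraries of a group agreed within sampling noise (lowest chi-square per degree of freedom 20.7).

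Counts were tested with edgeR 4.0.16 in R 4.3.3 (quasi-likelihood, TMM, minimum count 10 and minimum total count 15, 13646 genes kept and 8707 removed). A model of 12 group means gave the KO minus WT differences, and a 24 h cosine and sine per genotype gave the rhythm tests, each with 2 degrees of freedom. The test for any difference between times had 5. P-values were adjusted by Benjamini-Hochberg across the genes tested, and 0.05 was the threshold. CPM and the least-squares amplitudes and peak times were computed from the deposited counts, with a prior count of 2 for log2 values. Exon lengths and overlaps came from GENCODE M21 (GRCm38), so levels per kb are approximate for mm9 counts. The test was also run on simulated counts, drawn for each gene on its own. These lacked the component shared across genes, and no conclusion rests on them. Alternatives were DESeq2 1.42.0, other scalings, no filter, Alb kept, omission of libraries or of both 16 h groups, a replicate block and the 5 degree of freedom test. The omissions for similar genes and marker lists were chosen after the data were seen. The 3 libraries left out together include KO_16h replicate 2, set apart partly by its Por value.

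The members and gene lists were chosen with earlier results of these data known. Named from each list are the genes past the threshold in the genotype or rhythm difference test, otherwise the 2 with the lowest p, and the 2 largest WT amplitudes among rhythmic genes. For Alas1, Hmox1 and Por the 3 genes with the most similar group means are named, among those with a mean of at least 1 CPM. Some results are not reported here.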

Additional observations from a re-analysis of the deposited data

Results flagged for a closer look

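In 5 of 99 sets of a gene and a group of 4 or 5 mice, 1 mouse lay far from the others by the 95% limit of Dixon's test, which chance passes in about 1 in 20 sets. Among KO livers, Alas1 was highest at 8 h in replicate 2, with 787 CPM against 466 CPM in the nearest mouse. Alad was highest at 4 h in KO replicate 1, with 230 CPM against 105 CPM in the nearest, the library whose omission changed the 4 h results of Uros and Hmox1. Cpox was lowest at 8 h in KO replicate 4, with 88.7 CPM against 142 CPM. Among WT livers, Alad was lowest at 16 h in replicate 2, with 62.0 CPM against 161 CPM, and Urod was lowest at 12 h in replicate 2, with 86.7 CPM against 109 CPM. The group of 3 KO livers at 16 h, which holds the Por value of 2103 CPM, was too small for this test.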

How the results depend on the processing

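Of 76 results on single genes, 56 kept their direction and their side of the threshold in every alternative run for them (55 to 57 each); of 4261 values under an alternative 84 lost and 18 gained a call. Per-time results were recomputed for genes with an unadjusted p under 0.05 and for Por at 16 h, a choice made after their values were seen. Directions turned without both 16 h groups for Alad (0.024) and Urod (0.031) over all times. That of Por at 16 h (0.020) turned with totals alone (−0.066), without the 3 libraries (−1.34) and with the replicate block (−0.35), and lay between −1.37 (without KO_16h replicate 2) and 0.42 when single libraries were left out.

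Genes called over all times numbered 356 with DESeq2, 122 without a filter, 303 without the 3 libraries that stood apart and 127 with the replicate block (191 in the main test). With single libraries left out they numbered 99 (KO_16h replicate 3) to 484 (KO_4h replicate 1), with 125 without KO_4h replicate 3, 328 without KO_16h replicate 1, 363 without KO_16h replicate 2 and 381 without WT_16h replicate 2. At 0 h they numbered 11 (DESeq2), 5 (RLE or Alb kept), 10 (no filter), 8 (without the 3 libraries), 1 (without 16 h) and 0 (block), and 0 to 9 with single libraries left out. At 4 h they numbered 192 (DESeq2), 2 (no filter or block), 8 (without the 3 libraries) and 543 (without 16 h), and 0 to 3354 with single libraries left out. Members called at 4 h numbered 0 to 2 in those omissions, the 2 being Uros and Hmox1 without KO_4h replicate 1. At 8 h DESeq2 called 2 and single omissions 0 to 1. At 12 h the counts were 3 (DESeq2), 1 (no filter or without 16 h) and 0 to 2 in single omissions. At 16 h they were 17 (DESeq2) and 0 (totals alone, no filter, Alb kept, without the 3 libraries or block), and 0 to 25 in single omissions.

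With the 5 degree of freedom test 1328 genes varied with time in KO and 1167 in WT livers. Without single libraries the KO rhythm count was 1628 to 3691 (KO_16h replicate 3). Members called rhythmic in KO numbered 1 with RLE, totals alone, no filter or Alb kept, 0 without the 3 libraries, without 16 h or with 5 degrees of freedom, and 0 to 3 in single omissions. In WT they numbered 2 to 5 in single omissions; without KO_16h replicate 3 Urod (adjusted p = 0.0484) and Ppox (0.0305) joined. Ppox in WT also passed with DESeq2 (0.0335), and so did Fech in KO (0.0362). The rhythm difference count was 5 with DESeq2, 0 with the block and 1 to 2 in single omissions. The cause of these changes was not tested. Scaling moved the median of all genes by less than 0.1.

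Replicate numbers are shared between KO and WT groups in the labels, with no stated meaning. Deviations of same-numbered mice correlated above 0.1 in 14 of 23 pairs (−0.456 to 0.607). At no time did every pair do so, but the pair of replicate 1 did at every time (0.105 to 0.607). The numbers were not taken as a pairing in the main test, and what they stand for was not tested. With the replicate block 0 of 9 members were called. Cyp2c37 lost its call there (0.45, adjusted p = 0.0858). The near-equal totals limit what can be said of depth, and intervals cover the spread between mice only.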
